A study of Sus scrofa with 9 samples.

Results

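The enzymes that supply deoxynucleotides for DNA synthesis were described in the left ventricle of the newborn pig. The members were chosen by gene symbol from the deposited expression table, as thymidylate and deoxynucleotide supply enzymes (TYMS, RRM1, RRM2, TK1, DUT, DTYMK and DCK). Of these 7 symbols, 6 matched a row among the 22629 rows of the table, and RRM2, the small subunit of ribonucleotide reductase, is not analysed here. The 9 libraries were made from left ventricles of untreated wild type pigs, 3 each from postnatal day 0, day 7 and day 15. The libraries carry the replicate numbers 4, 5 and 6 on day 0, 2, 5 and 6 on day 7, and 1, 2 and 6 on day 15. The tissue is whole ventricle, so each value averages heart muscle cells with the other cells of the wall, and fewer cells of a type cannot be told apart from less RNA per cell. Whether same-age libraries are from different animals is not stated in the labels, so each p-value reflects sample-to-sample spread only, which may be technical.

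A dividing cell has to make each of the deoxynucleoside triphosphates before it can copy its genome. Ribonucleotide reductase, built from the large subunit RRM1 and a small subunit, reduces ribonucleotides to deoxyribonucleotides and sets the rate of the de novo route. Thymidine nucleotides need further steps. DUT, a dUTPase, turns dUTP into dUMP and keeps uracil out of DNA, TYMS methylates dUMP to dTMP, and DTYMK phosphorylates dTMP to dTDP. Salvage kinases recover nucleosides, with TK1 acting on thymidine and DCK on deoxycytidine and the purine deoxynucleosides. In human cells TYMS, RRM2 and TK1 are made mainly around S phase under E2F transcription factors, while DCK is less tied to the cell cycle. Heart muscle cells of mammals largely stop dividing after birth, and in pigs many become multinucleate, which also takes DNA synthesis.

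Values are TPM, a length-normalised share of each library's total, so levels may be compared between genes within this scale. TPM keeps no record of sequencing depth, which is unknown here. Each library listed 11290 to 12164 genes at 1 TPM or more, and a single gene without a symbol took 24.0% to 46.0% of all TPM. Pairs of libraries correlated across genes at 0.965 to 0.991 when of the same age and at 0.914 to 0.977 otherwise, a description only. All 6 members found passed the filter on low values (at least 1 TPM in at least 3 libraries), as did 12268 genes in total.

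RRM1 was the most abundant of the 6 enzymes in every library. On day 0 the order of mean levels was RRM1 (22.8 ± 10.03 TPM, given as mean ± SD of the age's libraries, n = 3, as are later such values), DTYMK (7.83 ± 0.862), DCK (7.61 ± 1.11), DUT (6.24 ± 1.83), TK1 (4.70 ± 2.71) and TYMS (2.99 ± 2.81). Only RRM1 stood apart there, and each other neighbouring pair overlapped between libraries. On day 7 the order was RRM1 (39.1 ± 4.72 TPM), TYMS (22.5 ± 7.72), TK1 (17.4 ± 5.79), DUT (10.9 ± 1.43), DTYMK (9.53 ± 1.097) and DCK (9.43 ± 1.53). TYMS thus stood last on day 0 and next to RRM1 on day 7. TYMS and TK1 overlapped on day 7, as did DUT, DTYMK and DCK among themselves, while RRM1 lay above TYMS in each library and TK1 lay above DUT. On day 15 the order was RRM1 (26.2 ± 4.22 TPM), TYMS (11.98 ± 2.56), DTYMK (8.16 ± 0.376), DCK (8.06 ± 2.63), TK1 (8.01 ± 2.24) and DUT (7.63 ± 0.792), where TYMS lay above DTYMK in every library and the last 4 overlapped. Among all tested genes, the mean of TYMS stood at percentile 24.2 on day 0, 78.9 on day 7 and 66.1 on day 15, and that of RRM1 at 77.4, 88.3 and 83.5.

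**Figure D1:**
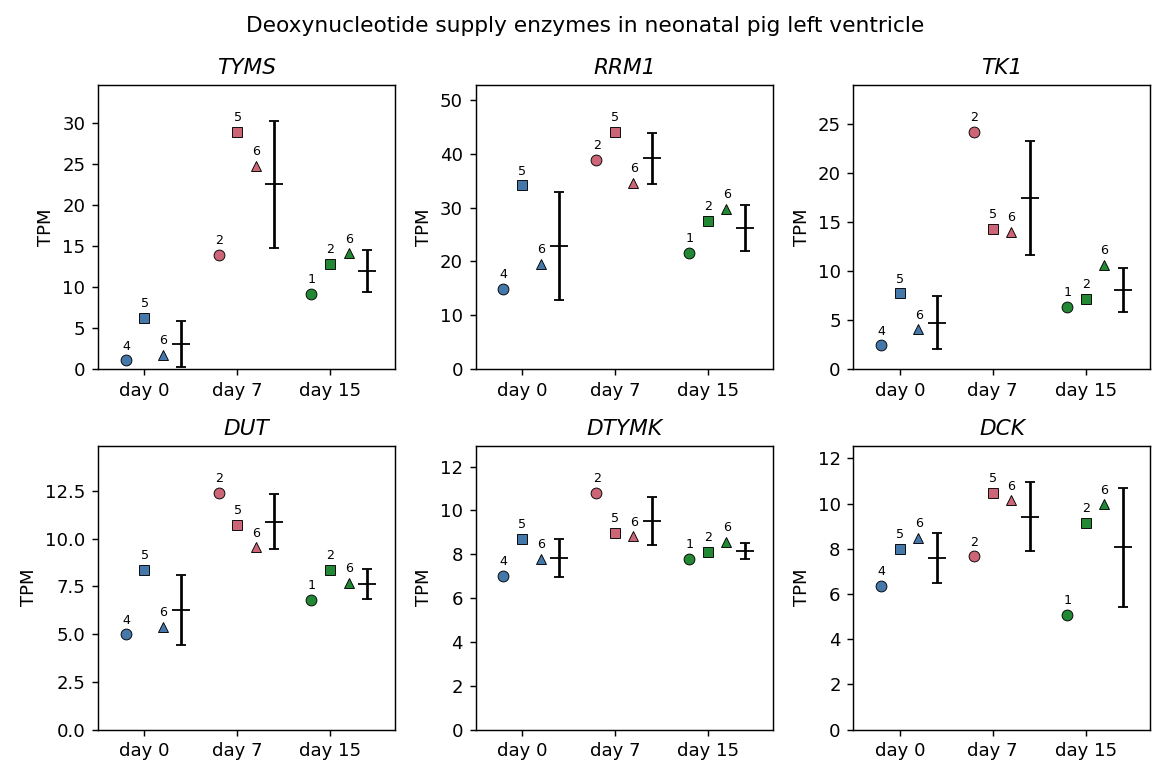
TPM of each enzyme (vertical axis, linear, from 0) in each library by postnatal age (horizontal axis), with the replicate number beside each point and the mean ± SD of 3 libraries as a bar. The 3 day 7 libraries lie above the 3 day 0 libraries for TYMS, RRM1, TK1, DUT and DTYMK, and the DCK libraries overlap between ages.

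The make-up of the group shifted with age. RRM1 held 34.0% to 46.7% of the TPM summed over the 6 enzymes in each library. The share of TYMS was 2.82%, 8.50% and 3.70% in day 0 replicates 4, 5 and 6, then 12.9%, 24.6% and 24.3% in day 7 replicates 2, 5 and 6, and 16.1%, 17.5% and 17.5% in day 15 replicates 1, 2 and 6. No day 0 library reached the share of any later library. The sum itself was 52.2 ± 18.8 TPM on day 0, 109 ± 7.82 TPM on day 7 and 70.04 ± 12.2 TPM on day 15, and the day 7 sums (102 to 117 TPM) lay above all others (36.7 to 80.5 TPM).

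The comparison of day 7 with day 0 asked how these enzymes changed over the week after birth. TYMS, TK1, RRM1 and DUT rose, and DTYMK and DCK did not pass the test (limma on log2(TPM + 1), Benjamini-Hochberg adjusted p under 0.05 over all 12268 genes). Thus 4 of 6 members rose and 0 fell, where 7.67% of all genes tested rose, 8.88% fell and 16.6% changed in either direction. The members' median log2 fold change was 0.78, against -0.04 over all genes tested. For 5 of the 6, every day 7 library lay above every day 0 library, which held for 17.6% of all genes tested.

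Among the enzymes of thymidylate synthesis, TYMS had 13.9, 28.8 and 24.7 TPM in day 7 replicates 2, 5 and 6, and 1.03, 6.21 and 1.73 TPM in day 0 replicates 4, 5 and 6. The lowest day 7 library was above the highest day 0 library, newborn replicate 5. The log2 fold change was 2.72 ± 0.40 (SE), about 6.58-fold on the TPM + 1 scale, with a limma adjusted p of 0.00326. This call was kept in all 19 alternative settings tried, with log2 fold changes between 1.79 and 3.26. DUT, which makes the substrate of TYMS, had 12.4, 10.7 and 9.54 TPM in the day 7 libraries and 4.99, 8.35 and 5.39 TPM in the day 0 libraries. Its groups did not overlap, and newborn replicate 5 was again the nearest to day 7. The change of DUT was 0.74 ± 0.20 (SE), or 1.67-fold (limma adjusted p = 0.0297). An uncharacterised locus overlaps the coordinates of DUT in the RefSeq annotation. Strand and exons were not compared, so whether the reads of DUT are less certain for it was not tested. DTYMK, the kinase that acts after TYMS, had 10.8, 8.99 and 8.82 TPM on day 7 and 7.00, 8.72 and 7.78 TPM on day 0. These groups lay close together without overlap, and the difference of 0.25 had a 95% interval of -0.10 to 0.61 (limma adjusted p = 0.293).

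In the reduction of ribonucleotides, RRM1 had 38.9, 44.0 and 34.6 TPM in day 7 replicates 2, 5 and 6, and 14.9, 34.1 and 19.5 TPM in day 0 replicates 4, 5 and 6. Newborn replicate 5 lay only just under the lowest day 7 library. RRM1 rose by 0.83 ± 0.26 (SE) on the log2 scale, or 1.77-fold (limma adjusted p = 0.0479), close to the threshold. RRM1 missed the threshold in 9 of the 19 alternative settings and DUT in 7. For RRM1 and then DUT, the limma adjusted p was 0.176 and 0.116 without newborn replicate 4, 0.165 and 0.123 without newborn replicate 6, 0.104 and 0.0999 without day 7 replicate 2, 0.118 and 0.0670 without day 7 replicate 5, and 0.0811 and 0.0555 without day 7 replicate 6. For RRM1 it was also 0.0604 without day 15 replicate 6. Without newborn replicate 5, the log2 fold changes were larger, at 1.15 for RRM1 and 0.94 for DUT (limma adjusted p = 0.00483 and 0.00766).

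The salvage kinases differed in their values. TK1, the thymidine kinase of the cytosol, had 24.1, 14.2 and 14.0 TPM in the day 7 libraries and 2.39, 7.69 and 4.03 TPM in the day 0 libraries. All day 7 libraries were well above day 0, and day 7 replicate 2 was the highest of the 9. TK1 rose by 1.76 ± 0.32 (SE), or 3.38-fold (limma adjusted p = 0.00730), and was called in all 19 alternative settings. DCK had 7.67, 10.5 and 10.1 TPM on day 7 and 6.36, 8.0 and 8.47 TPM on day 0. Day 7 replicate 2 fell inside the day 0 range. The difference of DCK was 0.27, with a 95% interval of -0.24 to 0.78 (limma adjusted p = 0.431).

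**Figure D2:**
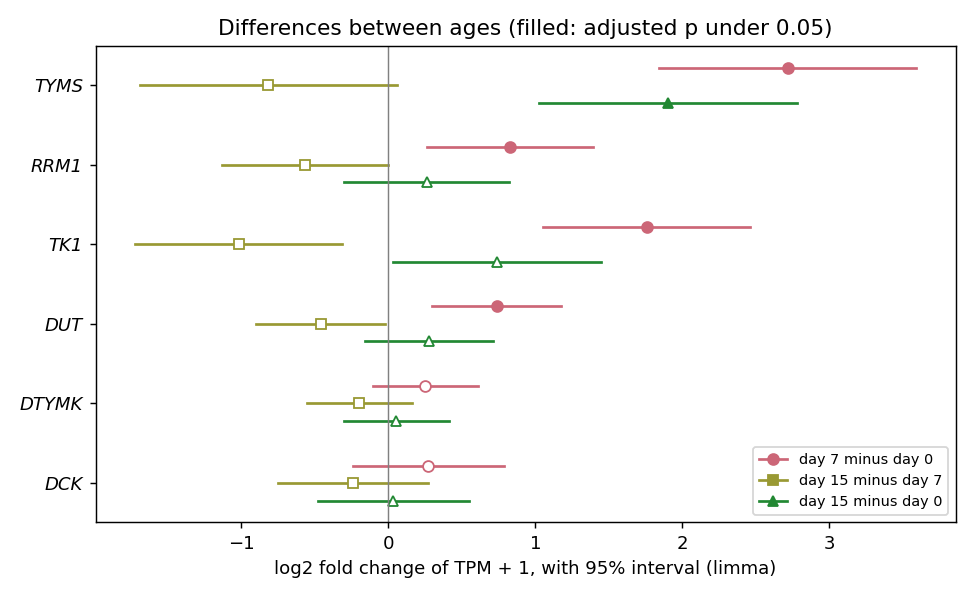
Log2 fold change of TPM + 1 (horizontal axis) for each enzyme (rows), with the 95% interval from limma as a line, for day 7 minus day 0, day 15 minus day 7 and day 15 minus day 0. Filled marks passed an adjusted p of 0.05 over all genes: TYMS, RRM1, TK1 and DUT for day 7 minus day 0, and TYMS for day 15 minus day 0.

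In the comparison of day 15 with day 7, each of the 6 members had a lower mean on day 15, and 0 of 6 passed the test, where 0.171% of all genes tested did (0.0408% higher and 0.13% lower). At an unadjusted p under 0.05, 3 of 6 members were lower (TK1, DUT and RRM1), where 11% of all genes tested were lower and 1.74% higher at that level. TK1 stayed under that level in all 19 alternatives, but it was the only member to do so after median-of-ratios scaling, without day 15 replicate 1 and without day 7 replicate 5, and the count of members was 1 to 4 over the alternatives. The members' median was -0.51, against -0.15 over all genes tested. For RRM1, TK1, DUT and DTYMK every day 15 library lay below every day 7 library, which held for 17.9% of all genes tested. TK1 had 6.36, 7.10 and 10.6 TPM in day 15 replicates 1, 2 and 6, and at least 14.0 TPM on day 7 (-1.02, 95% interval -1.72 to -0.31, limma adjusted p = 0.242). RRM1 had 21.5, 27.4 and 29.7 TPM on day 15 (-0.57, 95% interval -1.13 to -0.0026, limma adjusted p = 0.390). DUT had 6.80, 8.38 and 7.69 TPM on day 15 (-0.46, 95% interval -0.90 to -0.02, limma adjusted p = 0.374). The day 15 libraries were thus lower in each of these, with unadjusted intervals below 0, but none passed after adjustment over all genes.

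TYMS had 9.13, 12.7 and 14.1 TPM in day 15 replicates 1, 2 and 6, and replicate 6 overlapped the lowest day 7 library. Its difference from day 7 was -0.82, with a 95% interval of -1.69 to 0.06 (limma adjusted p = 0.420). DTYMK had 7.81, 8.11 and 8.55 TPM on day 15 (-0.20, 95% interval -0.56 to 0.16). DCK had 5.06, 9.16 and 9.96 TPM on day 15 (-0.24, 95% interval -0.75 to 0.27). Day 15 replicate 1 was the lowest of all 9 libraries for DCK. It was also the library in which the gene without a symbol took the 46.0% of TPM, and the part of that in the level of DCK was not tested.

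In the comparison of day 15 with day 0, TYMS rose and the other 5 members did not pass the test, so 1 of 6 rose, where 5.53% of all genes tested rose and 23.9% changed in either direction. The change of TYMS was 1.90 ± 0.40 (SE), or 3.74-fold on the TPM + 1 scale (limma adjusted p = 0.00802). The lowest day 15 library held 9.13 TPM, against 6.21 TPM in the highest day 0 library, and 9.45% of all genes tested were higher in day 15 without overlap. This call was kept in all 19 alternative settings, with log2 fold changes of 1.13 to 2.44 and an adjusted p of up to 0.0492. TK1 was 0.74 ± 0.32 (SE) above day 0 (limma adjusted p = 0.114), and with TYMS made 2 of 6 members higher at an unadjusted p under 0.05, where 9.87% of all genes tested were higher and 29.1% lower. Its day 0 replicate 5, at 7.69 TPM, lay inside the day 15 range, and without that library TK1 was called (1.097, limma adjusted p = 0.0183). The differences were 0.26 for RRM1 (95% interval -0.30 to 0.82), 0.28 for DUT (-0.16 to 0.71), 0.06 for DTYMK (-0.30 to 0.41) and 0.04 for DCK (-0.48 to 0.55). After median-of-ratios scaling, DUT was at 0.49 (limma adjusted p = 0.0535), TK1 at 0.95 (0.0523) and RRM1 at 0.50 (0.122). After rescaling without mitochondrial and the 20 most abundant genes, they were at 0.54 (0.0556), 1.07 (0.0560) and 0.52 (0.146). These scalings moved the median over all genes by 0.21 and 0.22. Newborn replicates 4 and 5 moved the difference of RRM1, which was 0.0093 without replicate 4 and 0.58 without replicate 5, and that of DUT, which was 0.15 and 0.47, and neither gene passed in any alternative. The median over all genes tested was -0.19. Over the 3 ages together, limma's F test called TYMS (adjusted p = 0.00382), TK1 (0.0107) and DUT (0.0477), 3 of 6, where it called 22% of all genes tested. The call of TK1 was lost without newborn replicate 6 (adjusted p = 0.0579). That of DUT was lost without newborn replicate 4 (0.132) or 6 (0.155), day 7 replicate 2 (0.152), 5 (0.0987) or 6 (0.0671), or day 15 replicate 6 (0.0869). RRM1 had an F test adjusted p of 0.0748, and was called without newborn replicate 5 (0.0101), after median-of-ratios scaling (0.0373) and after rescaling without mitochondrial and the 20 most abundant genes (0.0331).

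A ratio of the TPM of paired enzymes in the same library does not depend on how that library is scaled. The tests used the log2 ratio of TPM + 1, in which the added 1 leaves some dependence at low values. TK1 was set against TK2, its mitochondrial counterpart, which works in cells that do not divide. The ratio of TK1 to TK2 in TPM was 0.174, 0.432 and 0.257 in day 0 replicates 4, 5 and 6, then 2.41, 1.36 and 1.67 in day 7 replicates 2, 5 and 6, and 0.724, 0.783 and 1.27 in day 15 replicates 1, 2 and 6. The ages did not overlap, day 7 was highest and day 0 lowest. On the log2 scale of TPM + 1, day 7 was 2.41 above day 0 and day 15 was 1.51 above day 0, while day 15 was -0.90 from day 7. Each of these had p = 0.10 in an exact two-sided permutation test, the smallest that 3 against 3 libraries can give (adjusted p = 0.30 over 12 tests). Day 7 against the other 6 libraries gave an exact permutation p of 0.0238, also the smallest possible, and an adjusted p of 0.286. TK2 itself had 10.02, 10.4 and 8.35 TPM on day 7 and 13.7, 17.8 and 15.7 TPM on day 0. TK2 fell by 0.66 (limma adjusted p = 0.0236), lost without any of the 3 newborn libraries or day 7 replicates 2 or 6, and was 0.78 lower on day 15 than on day 0 (limma adjusted p = 0.0087).

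The other enzyme pairs did not pass a test either. DCK was set against DGUOK, the mitochondrial deoxyguanosine kinase, and their TPM ratio was 1.26 ± 0.324 on day 0, 1.67 ± 0.405 on day 7 and 1.46 ± 0.465 on day 15. DUT was set against UNG, the glycosylase that removes uracil from DNA, and their ratio was 0.941 ± 0.194 on day 0, 0.807 ± 0.0273 on day 7 and 0.876 ± 0.134 on day 15. For both pairs the exact permutation p was 0.20 for day 7 against day 0, and 0.50 and 0.60 for day 15 against day 7. UNG itself had 15.4, 12.8 and 12.2 TPM on day 7 and 5.86, 10.3 and 4.63 TPM on day 0, so that both DUT and UNG were higher on day 7 in all libraries. UNG rose on day 7 (limma adjusted p = 0.03117), lost without newborn replicates 4 or 6 or any day 7 library.

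Further ratios were chosen after the values were seen, for their pattern, and were not tested. The ratio of TYMS to TK1 was 0.433, 0.807 and 0.4302 in day 0 replicates 4, 5 and 6, then 0.575, 2.02 and 1.77 in day 7 replicates 2, 5 and 6, and 1.44, 1.79 and 1.33 in day 15 replicates 1, 2 and 6. Day 7 replicate 2 was inside the day 0 range, and the other later libraries were above it. It had the highest TK1 and the lowest TYMS of its age. Against PCNA, the sliding clamp of the replication fork, TYMS had a ratio of 0.0393, 0.183 and 0.0677 in the day 0 libraries, 0.274, 0.701 and 0.600 in the day 7 libraries and 0.501, 0.520 and 0.516 in the day 15 libraries. The day 15 ratios were close together and above every day 0 library. PCNA itself averaged 28.6 ± 4.602 TPM on day 0, 44.4 ± 5.46 TPM on day 7 and 23.3 ± 4.65 TPM on day 15. RRM1 to PCNA was 0.566 to 1.01 on day 0, 0.767 to 1.07 on day 7, and 1.18, 1.12 and 1.09 in day 15 replicates 1, 2 and 6, which lay above all other libraries.

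**Figure D3:**
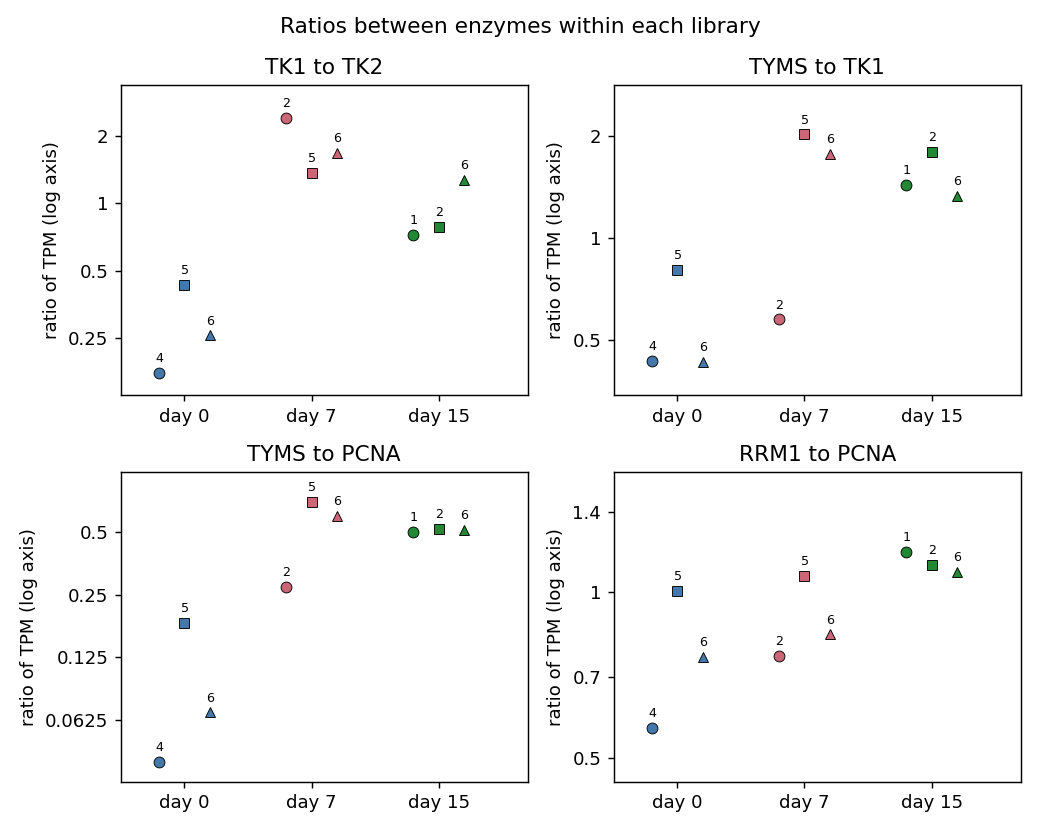
Ratio of TPM between paired genes (vertical axes, log scale) in each library by postnatal age, with the replicate number above each point. TK1 to TK2 does not overlap between ages, TYMS to TK1 is 0.575 in day 7 replicate 2 against 2.02 and 1.77 in replicates 5 and 6, and TYMS to PCNA lies between 0.501 and 0.520 in the 3 day 15 libraries.

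The rest of the deoxynucleotide network was described from a list of 35 further genes, of which 30 had a row and 28 were tested. At day 7 against day 0, 3 rose and 6 fell, with a median of -0.16 against -0.04 over all genes tested, of which 7.67% rose and 8.88% fell. The 3 of 28 that rose are near that share. Those that rose were UNG (0.93), the nucleoside diphosphate kinase NME3 (0.92) and adenosine deaminase, ADA (0.60). The 6 that fell were TK2, the nucleoside diphosphate kinase NME1 (-0.88), the UMP-CMP kinase CMPK1 (-0.68), the nucleoside transporter SLC29A2 (-1.50), the mitochondrial pyrimidine nucleotide carrier SLC25A33 (-0.94) and thioredoxin reductase, TXNRD1 (-0.73), which regenerates an electron donor of ribonucleotide reductase. Leaving out newborn replicate 4 or 6 left 0 that rose and 1 that fell, and leaving out day 7 replicate 6 did so too. Without day 7 replicate 2, 0 rose and 5 fell, and without day 7 replicate 5, 1 rose and 4 fell. After median-of-ratios scaling, 6 rose and 7 fell, where 1913 of all 12247 genes tested rose and 1879 fell. After rescaling without mitochondrial and the 20 most abundant genes, 8 of 30 rose and 6 fell, where 2403 of all 13897 rose and 1247 fell. The most abundant gene of the list, the nucleoside diphosphate kinase NME2, had 259 ± 63.8 TPM on day 7 and 362 ± 24.5 TPM on day 0 (limma adjusted p = 0.0879). RRM2B, the small subunit of ribonucleotide reductase used outside S phase, was below the filter, at 0.397 ± 0.0673 TPM on day 0, 0.664 ± 0.220 TPM on day 7 and 0.717 ± 0.184 TPM on day 15.

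By day 15, 2 genes of this list were higher than on day 0 and 9 were lower, with a median of -0.34 against -0.19 over all genes tested, of which 5.53% rose and 18.4% fell. The 2 of 28 that rose are near that share. Those higher were CMPK2 (2.88, limma adjusted p = 0.00606), a mitochondrial kinase that interferons induce, and the dNTP hydrolase SAMHD1 (0.84, limma adjusted p = 0.0418, lost without newborn replicates 4 or 6, day 7 replicates 2 or 6, or day 15 replicates 2 or 6). The 9 that fell included NME1 (-1.17) and a pair of folate enzymes that serve thymidylate synthesis, SHMT1 (-0.92, limma adjusted p = 0.0115) and MTHFD1 (-0.71, limma adjusted p = 0.0153), both lost without newborn replicate 6 and MTHFD1 also without day 15 replicate 6. SHMT1 had 1.95 ± 0.453 TPM on day 15 and 4.65 ± 1.36 TPM on day 0. Without newborn replicate 6, 1 gene rose and 2 fell, and without day 15 replicate 6, 1 rose and 5 fell. At day 15 against day 7, 0 of 28 passed, where 0.171% of all genes tested did. At an unadjusted p under 0.05 (limma), 1 was higher and 5 were lower, where 1.74% of all genes tested were higher and 11% lower. Without day 7 replicate 5, 1 was higher and 1 lower after adjustment, and without newborn replicate 5, 1 was lower.

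Ribonucleotides, from which deoxynucleotides are drawn, come from the purine and pyrimidine synthesis pathways. Of 15 purine synthesis genes tested, 0 rose and 2 fell at day 7 against day 0 (GART -0.82 and adenosine kinase, ADK, -0.84), with a median of -0.34, where 7.67% of all genes tested rose and 8.88% fell. At an unadjusted p under 0.05, 0 were higher and 5 lower, where 15.4% of all genes tested were higher and 18.5% lower. Of 7 pyrimidine synthesis genes, 0 rose and 1 fell (UMPS, -0.84), with a median of -0.23, and 0 were higher and 2 lower at the unadjusted level. GART was lost without newborn replicates 4 or 6 or day 7 replicates 2 or 6, ADK without newborn replicate 6 or day 7 replicate 2, and UMPS without newborn replicates 4 or 6 or day 7 replicate 6. At day 15 against day 0, 0 purine genes rose and 9 fell, with a median of -0.56, and 0 pyrimidine genes rose and 4 fell, with a median of -0.55, where 18.4% of all genes tested fell. PFAS fell to 1.63 ± 0.194 TPM on day 15, against 5.94 ± 1.98 TPM on day 0 (-1.36), PAICS by 0.87, IMPDH2 by 0.92, CTPS1 by 1.02 and DHODH by 0.88 on the log2 scale, and these 5 calls were kept in every alternative tried. Without newborn replicate 6, 5 purine and 2 pyrimidine genes fell, without day 15 replicate 6, 6 and 2, without newborn replicate 4, 7 and 2, and without day 15 replicate 1, 7 and 2. Adenylosuccinate synthase 1, ADSSL1, the most abundant purine gene, had 70.6 ± 6.14 TPM on day 15 and 77.4 ± 8.65 TPM on day 0 (limma adjusted p = 0.578).

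Genes of the replication fork and of mitosis were set beside the members library by library. Of 32 fork and origin genes, 17 rose and 0 fell at day 7 against day 0, with a median of 0.75 against -0.04 over all genes tested, of which 7.67% rose and 8.88% fell. They included DNA polymerase epsilon, POLE (1.29), DNA ligase, LIG1 (1.097), and the helicase subunits MCM3 (1.35) and MCM5 (1.38). The 17 became 4 without newborn replicate 4, 2 without newborn replicate 6, 9 without day 7 replicate 2 and 11 without day 7 replicate 6, and ranged from 2 to 24 over all alternatives. PCNA, the most abundant of them, rose by 0.62 (limma adjusted p = 0.0491, lost in 10 of 19 alternatives, among them without newborn replicate 4 or 6, any day 7 library or day 15 replicate 6). Of 13 mitosis genes, 7 rose and 0 fell, with a median of 1.36, beside the same 7.67% and 8.88% of all genes tested. The spindle checkpoint kinase BUB1B (1.75) and the kinetochore protein CENPF (1.397) kept their calls throughout, and topoisomerase TOP2A (1.54) and cyclin CCNB2 (1.504) lost theirs without newborn replicate 4 or 6. The count of mitosis genes that rose was 2 without newborn replicate 4 or 6, 4 without day 7 replicate 2, and 13 without newborn replicate 5. The most abundant, the ubiquitin-conjugating enzyme UBE2C, had 47.9 ± 12.9 TPM on day 7 and 27.1 ± 24.8 TPM on day 0 (limma adjusted p = 0.103). At day 15 against day 0, 0 fork genes rose and 1 fell (0 higher and 2 lower at an unadjusted p under 0.05), and 0 mitosis genes passed (median 0.52, 2 higher at the unadjusted level), where 5.53% of all genes tested rose and 18.4% fell. At the unadjusted level, 9.87% of all genes tested were higher and 29.1% lower. The fork median of 0.02 had no stable sign, at -0.17 without newborn replicate 4, -0.06 without newborn replicate 6, 0.28 without newborn replicate 5, -0.03 without day 15 replicate 2 and -0.02 without day 15 replicate 6. The fork gene that fell was CDC7, a kinase that fires origins, and it was lost without newborn replicate 6 or day 15 replicate 6. Without newborn replicate 5, 4 fork and 9 mitosis genes rose at day 15 against day 0. At day 15 against day 7, 0 fork and 0 mitosis genes passed, while 26 of 32 and 7 of 13 were lower at an unadjusted p under 0.05 (limma), as were 11% of all genes tested, with medians of -0.69 and -0.78, and 4 fork genes fell without newborn replicate 5.

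**Figure D4:**
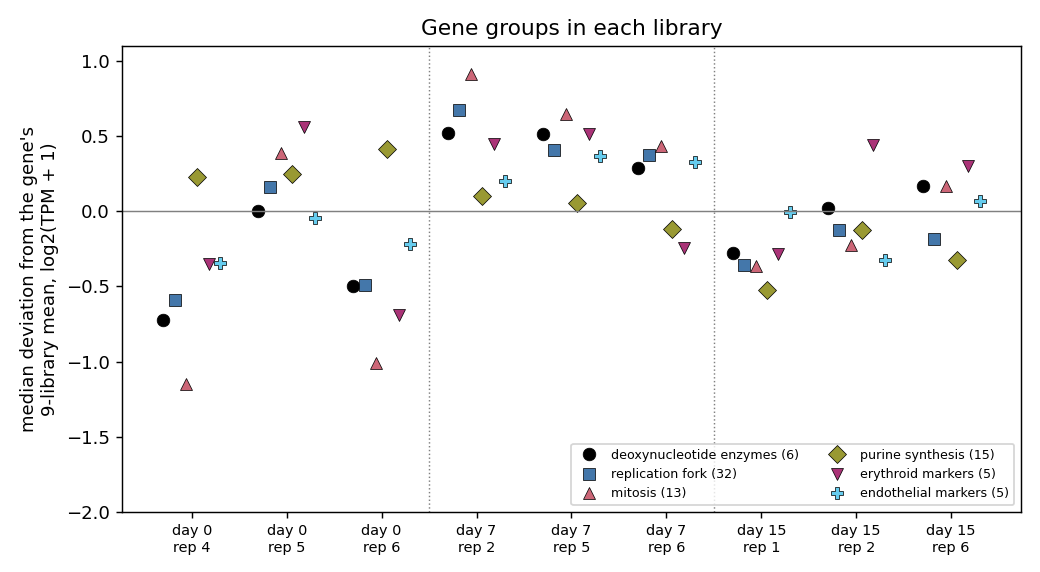
Median deviation of each gene group from its genes' 9-library means on the log2(TPM + 1) scale (vertical axis) in each library (horizontal axis), with the number of genes tested in the legend. Newborn replicate 5 lies at 0.00 for the deoxynucleotide enzymes and 0.39 for mitosis genes, above the other newborn libraries (-0.72 and -0.49, and -1.15 and -1.01), while purine synthesis genes are at 0.23 to 0.42 in the 3 newborn libraries and at -0.52 to -0.12 on day 15.

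Newborn replicate 5 stood apart from the other newborn libraries in the members and in other groups. The median deviation of the 6 members was -0.72, 0.00 and -0.49 in newborn replicates 4, 5 and 6, that of the fork genes -0.59, 0.16 and -0.49, and that of the mitosis genes -1.15, 0.39 and -1.01. Of the members, TYMS, RRM1, TK1, DUT and DTYMK were highest of the newborn libraries in replicate 5, and DCK was highest in replicate 6. Erythroid markers were also highest in replicate 5, with summed levels of 609, 1327 and 520.0 TPM in newborn replicates 4, 5 and 6. The sums were 604 to 1261 TPM on day 7 and 508 to 825 TPM on day 15. Of 10 erythroid markers, 9 had a row and 5 were tested. Of these, 1 (GYPC, 0.96) rose on day 7, where 7.67% of all genes tested rose and 8.88% fell. The GYPC call was lost without newborn replicates 4 or 6 or day 7 replicates 2 or 5. No marker of any list was at 0 in every library, and AHSP, SLC4A1 and EPB42 were below the filter. Endothelial markers summed to 177 to 212 TPM on day 0, 279 to 300.0 TPM on day 7 and 171 to 203 TPM on day 15, so day 7 stood above both other ages. Of these 5 markers, PECAM1 (0.67) and CDH5 (0.94) rose on day 7, where 7.67% of all genes tested rose. The median difference was 0.41 against -0.04 over all genes tested, with 4 markers positive and 1 negative. PECAM1 was lost without newborn replicates 4 or 6 or day 7 replicates 2 or 6, and both calls were lost with the replicate number as a block. The part of red cell precursors and endothelial cells in the members' levels was not tested.

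Heart muscle markers were present as labelled, with a summed level of 6 markers of 21043 to 31353 TPM over the 9 libraries, and 0 of 6 passed in any of the 3 comparisons. At an unadjusted p under 0.05 (limma), 1 was higher and 1 lower at day 7 against day 0, 0 at day 15 against day 7, and 1 higher at day 15 against day 0. Of all genes tested, 15.4%, 1.74% and 9.87% were higher at that level in these 3 comparisons, and 18.5%, 11% and 29.1% lower. After median-of-ratios scaling, 1 of 6 rose at day 7 and at day 15 against day 0, where 1913 and 1925 of 12247 genes did. After rescaling without mitochondrial and the 20 most abundant genes, 1 of 3 tested did, where 2403 and 1850 of 13897 did. Without day 7 replicate 6, 1 rose in both (506 and 627 of 12185 genes). Without day 7 replicate 2, 1 fell at day 7 (630 of 12185). With only the 2 ages compared, 1 rose at day 15 against day 0 (601 of 11851). Fibroblast markers summed to 429 to 664 TPM on day 0, 652 to 906 TPM on day 7 and 573 to 621 TPM on day 15. On the deposited values, 0 of 5 were past the threshold in any comparison, before or after adjustment (limma). After median-of-ratios scaling, 1 of 5 rose at day 7 against day 0, where 1913 of 12247 genes did. After the other rescaling 1 did too, where 2403 of 13897 genes did. Macrophage markers summed to 46.4 to 92.1 TPM in all libraries except day 15 replicate 2, which held 204 TPM. On day 7, 1 of 5 (CSF1R, 0.79) rose, where 7.67% of all genes tested rose and 8.88% fell. Its call was lost in 10 of 19 alternatives, all 6 that leave out a day 0 or day 7 library among them. At an unadjusted p under 0.05 (limma), 1 macrophage marker was higher on day 7 and 1 lower, where 15.4% of all genes tested were higher and 18.5% lower. After adjustment, 1 marker fell on day 7 with only the 2 ages compared and without day 15 replicate 1 or 2. At day 15 against day 0, CSF1R rose again (0.80), 1 of 5 called, with 3 markers higher and 1 lower at an unadjusted p under 0.05 and a median of 0.80. Of all genes tested, 5.53% rose, and 9.87% were higher and 29.1% lower at the unadjusted level. The count of macrophage markers called was 3 after either rescaling and without day 15 replicate 1 or day 7 replicate 5, and 0 without any newborn library, day 7 replicate 6, or day 15 replicate 2 or 6. The part of macrophages in the members' levels was not tested. Lymphocyte markers summed to 3.19 to 7.91 TPM in the same 8 libraries and 20.9 TPM in day 15 replicate 2, and the T and B cell markers CD3E and MS4A1 were below the filter.

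Known regulators of these enzymes were read in the same libraries. E2F1, a transcription factor that activates S phase genes, averaged 21.2 ± 3.63 TPM on day 7 and 6.14 ± 4.65 TPM on day 0, and rose by 1.82 (limma adjusted p = 0.00847, lost without newborn replicate 6). E2F7 (0.88) and E2F8 (1.33), which repress E2F targets, rose as well, as did the E2F partner TFDP2 (1.14) and MYBL2 (1.81), a factor of late cell cycle genes. E2F2 (1.08) was also called and is among the 8 regulators counted as risen below. It was no longer tested when any day 7 library was left out. It thus passed the filter on low values only through the day 7 libraries, and its rise is no separate support. The calls of E2F7, E2F8 and MYBL2 were lost without newborn replicate 4 or 6, that of E2F7 also without day 7 replicate 2, and that of TFDP2 without newborn replicate 6. Of 19 regulators tested, 8 rose and 3 fell on day 7 (3 and 0 without newborn replicate 4, 1 and 0 without newborn replicate 6, 4 and 3 without day 7 replicate 2, and 6 and 0 without day 7 replicate 6), where 7.67% of all genes tested rose and 8.88% fell. The 3 that fell were E2F4 (-0.76), E2F6 (-1.03) and the p21 inhibitor CDKN1A (-1.13), each lost without newborn replicate 4, newborn replicate 6 or day 7 replicate 6. CDKN1A had 37.5 ± 7.62 TPM on day 0, 17.6 ± 7.5 TPM on day 7 and 41.4 ± 13.1 TPM on day 15. FZR1, the adaptor with which the anaphase-promoting complex marks human TK1 and RRM2 for breakdown, had 15.4 ± 2.27 TPM on day 7 and 17.1 ± 1.47 TPM on day 0 (limma adjusted p = 0.591). Cyclin F, CCNF, which marks RRM2 in human cells, rose by 1.34 (limma adjusted p = 0.0168, lost without newborn replicate 4 or 6 or day 7 replicate 2).

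The genes whose profiles lay closest to a member were found from the root mean square difference of log2(TPM + 1), centred on each gene's own mean, over the 9 libraries. TK1 was nearest to E2F1 (0.16), NRM (0.20) and MYBL2 (0.22). DUT was nearest to E2F7 (0.09), MANSC1 (0.09) and TUBG1 (0.09). E2F7 averaged only 0.588 TPM on day 0, 1.89 TPM on day 7 and 1.07 TPM on day 15. At such levels the added 1 TPM shrinks differences, so the closeness of E2F7 to DUT holds on this scale only. TYMS had no neighbour at so small a difference, the nearest being NATD1 (0.44), ASB15 (0.45) and TMEM219 (0.46). The difference is not scaled to a gene's own range, which was 3.87 for TYMS, 2.89 for TK1 and 1.16 for DUT in log2(TPM + 1). Larger differences for TYMS, to other genes or to other members, therefore do not show a less matched profile. The mean of NATD1 was 3.44 TPM on day 0, 16.0 TPM on day 7 and 12.8 TPM on day 15. Within the members, RRM1 and DUT were the closest pair (0.17), and TYMS lay 0.70 from TK1 and 1.17 from DTYMK. Over the 9 libraries TYMS ranged 27.9-fold in TPM and TK1 10.1-fold, while RRM1 ranged 2.95-fold, DUT 2.48-fold, DCK 2.07-fold and DTYMK 1.54-fold.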

How the data were processed

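The deposited table holds TPM values made by the authors, with a column for each of the 9 libraries, from RNA of frozen tissue made into stranded mRNA libraries per the labels' protocols. Per the submitters' processing notes the tools were kallisto 0.43.1, HISAT2 2.0.5 and Trimmomatic 0.33, with no role stated. Build, annotation and strand setting: not given in the sources used here. An overlap at DUT is from RefSeq's Sscrofa11.1 annotation. Depth is unknown, so no counting interval is given. The members, lists and tests were chosen with earlier results of these data known.

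Genes with at least 1 TPM in at least 3 libraries were tested as log2(TPM + 1) with limma 3.58.1 in R 4.3.3 (1 mean per age, all 9 libraries, mean-variance trend, 6 residual degrees of freedom), with Benjamini-Hochberg adjustment over 12268 genes. Fold changes on this scale understate those of low genes. Rows with Ensembl identifiers took symbols from a table of gene names for the lists other than the members. RRM2 is not analysed here, so planned ratios with it were not computed, and some items of the lists are not reported here. Named genes were all members, per list up to 4 genes with the smallest adjusted p at day 7 and the most abundant gene, chosen regulators, the paired enzymes and the 3 nearest profiles of members past the F test. Others named (further list members that passed, CMPK1 and ADA among them, and PCNA ratios) were chosen after their values were seen. Alternatives were other pseudocounts, filters, scalings and fits, a replicate number block, and fits with 1 library fewer. Applying them to the other gene lists was chosen after seeing the data.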

Additional observations from a re-analysis of the deposited data

How the results depend on the processing

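The calls of TYMS (day 7 and day 15 against day 0) and of TK1 (day 7 against day 0) were kept in all 19 alternatives. The count of members called for day 7 against day 0 was 4 on the deposited values, 2 without the low-value filter and 2 to 4 when single libraries were left out. For day 15 against day 0 it was 1, with 1 to 2 when single libraries were left out, and for the F test 3, with 1 to 4. It was 0 for day 15 against day 7 in each. With the replicate number as a block, 2 members were called for day 7 against day 0 and 1 by the F test, 1 was lower at an unadjusted p under 0.05 for day 15 against day 7 in place of 3, and the fork median for day 15 against day 0 was -0.11. Over all genes the block called 857 in place of 2031 for day 7 against day 0, 126 in place of 21 for day 15 against day 7 and 919 in place of 2933 for day 15 against day 0. The numbers were not taken to pair the libraries, since the labels do not say so and deviations of same-numbered libraries correlated at only -0.21 to 0.17, and the cause of the changed counts was not tested.

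Among the members and planned ratios, the sign changed only in differences that did not pass. With the block, DCK was at 0.0793 (day 15 against day 7) and DTYMK at -0.0302 (day 15 against day 0). Leaving out single libraries gave -0.40 to 0.0286 for DCK at day 15 against day 7, -0.13 to 0.30 for DCK and -0.0138 to 0.13 for DTYMK at day 15 against day 0. For the log2 ratios it gave -0.0463 to 0.34 for DCK to DGUOK and -0.19 to 0.0542 for DUT to UNG (day 15 against day 0), and -0.0050 to 0.17 for DUT to UNG (day 15 against day 7). The cause was not tested.

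Without newborn replicate 6 the counts over all genes were 372, 2 and 786, and after median-of-ratios scaling 3792, 11 and 3814. That scaling moved the median of all genes by 0.21 at day 15 against day 0 and by 0.15 at day 15 against day 7. Rescaling without mitochondrial and the 20 most abundant genes moved it by 0.22 at day 15 against day 0 and by 0.17 at day 7 against day 0, and put the share of called genes that rose at day 7 at 65.8%, against 46.3% on the deposited scale. At day 15 against day 0 that share was 50.5% and 51.1% on the rescaled values, against 23.1%. On these 2 scales TYMS was at 2.76 and 3.18 and RRM1 at 0.89 and 1.02 for day 7 against day 0. TPM without counts limits how far low values such as those of TYMS on day 0 can be judged.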
